A study of Arabidopsis thaliana with 4 samples.

Results

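Brassinosteroids are steroid hormones that drive cell elongation in plant shoots, and their amount in a tissue depends on the balance of synthesis and inactivation. The 5 genes described here encode cytochrome P450 enzymes of that balance in Arabidopsis thaliana. DWF4 hydroxylates the sterol side chain and is regarded as the rate-limiting enzyme of synthesis. CPD is needed for another early step of the same route. BR6OX1 and BR6OX2 carry out the late oxidations that yield the active hormones. BAS1 works in the other direction, since it hydroxylates active brassinosteroids and so inactivates them. The synthesis genes are known to be repressed by their own end product, while BAS1 is known to be raised by it.

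The 5 genes were chosen by name among 27444 nuclear protein-coding genes, with earlier results of these data known. Binding was described by the peaks within 5000 bp of each gene. SMXL6, a repressor protein of the strigolactone pathway, was mapped by chromatin immunoprecipitation and sequencing with a polyclonal antibody against the HA tag, in whole seedlings aged 2 weeks. The 2 SMXL6-HA libraries came from plants of the genotype smxl6/7/8 pSMXL6:SMXL6-HA, in which a tagged SMXL6 is expressed from its own promoter, and the 2 control libraries from smxl6/7/8, the same triple mutant without the transgene. All 4 libraries therefore came from plants mutant in the native SMXL6, SMXL7 and SMXL8 genes, and the labels do not give the number of independent transgenic lines. A signal from whole seedlings cannot tell weak binding in many cells from strong binding in few.

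The authors called peaks for each replicate over the control of the same number, which gave list 1 with 1789 peaks (median width 2824 bp, median score 92.0) and list 2 with 1442 peaks (median width 1236 bp, median score 89.2). The score is the authors' own value for a peak, and rank 1 is the highest score of its list. The lowest score was 50.01 in list 1 and 20.72 in list 2. A peak counted as replicated when at least 1 bp of it was also under a peak of the opposite list, which held for 54.9% of list 1 and 74.7% of list 2. Replicates are not described as separate cultures, so agreement between the lists reflects the spread of these libraries and may be technical. The lists hold 1 row per peak and no read counts, so no test across samples could be made and read depth is unknown. Binding too weak to be called at this depth would leave a gene without a peak. Strand was not used here, so "below" stands for the side of lower coordinates and "above" for the side of higher ones.

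SMXL6 peaks were found at DWF4 and BAS1 in both lists, at CPD in list 1 only, and at BR6OX1 and BR6OX2 in neither list. The replicated peaks thus lay at a gene of hormone synthesis and at the gene of hormone inactivation. Within 5000 bp, 3 of the 5 genes had a peak in list 1, where 21.4% of all protein-coding genes had one. In list 2 there were 2 of 5, against 15.4% of all genes. A replicated peak stood at 2 of 5, against 11.5% of all genes. Over the gene itself the counts were also 3 of 5 in list 1, 2 of 5 in list 2 and 2 of 5 replicated, against 8.59%, 4.59% and 3.37% of all genes. With scores of at least 100, DWF4 alone of the 5 had a replicated peak, against 5.17% of all genes. With 5 genes these counts describe the genes named and were not tested. Because the genes were chosen with earlier results of these data known, the counts are not independent evidence of an excess.

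**Figure D1:**
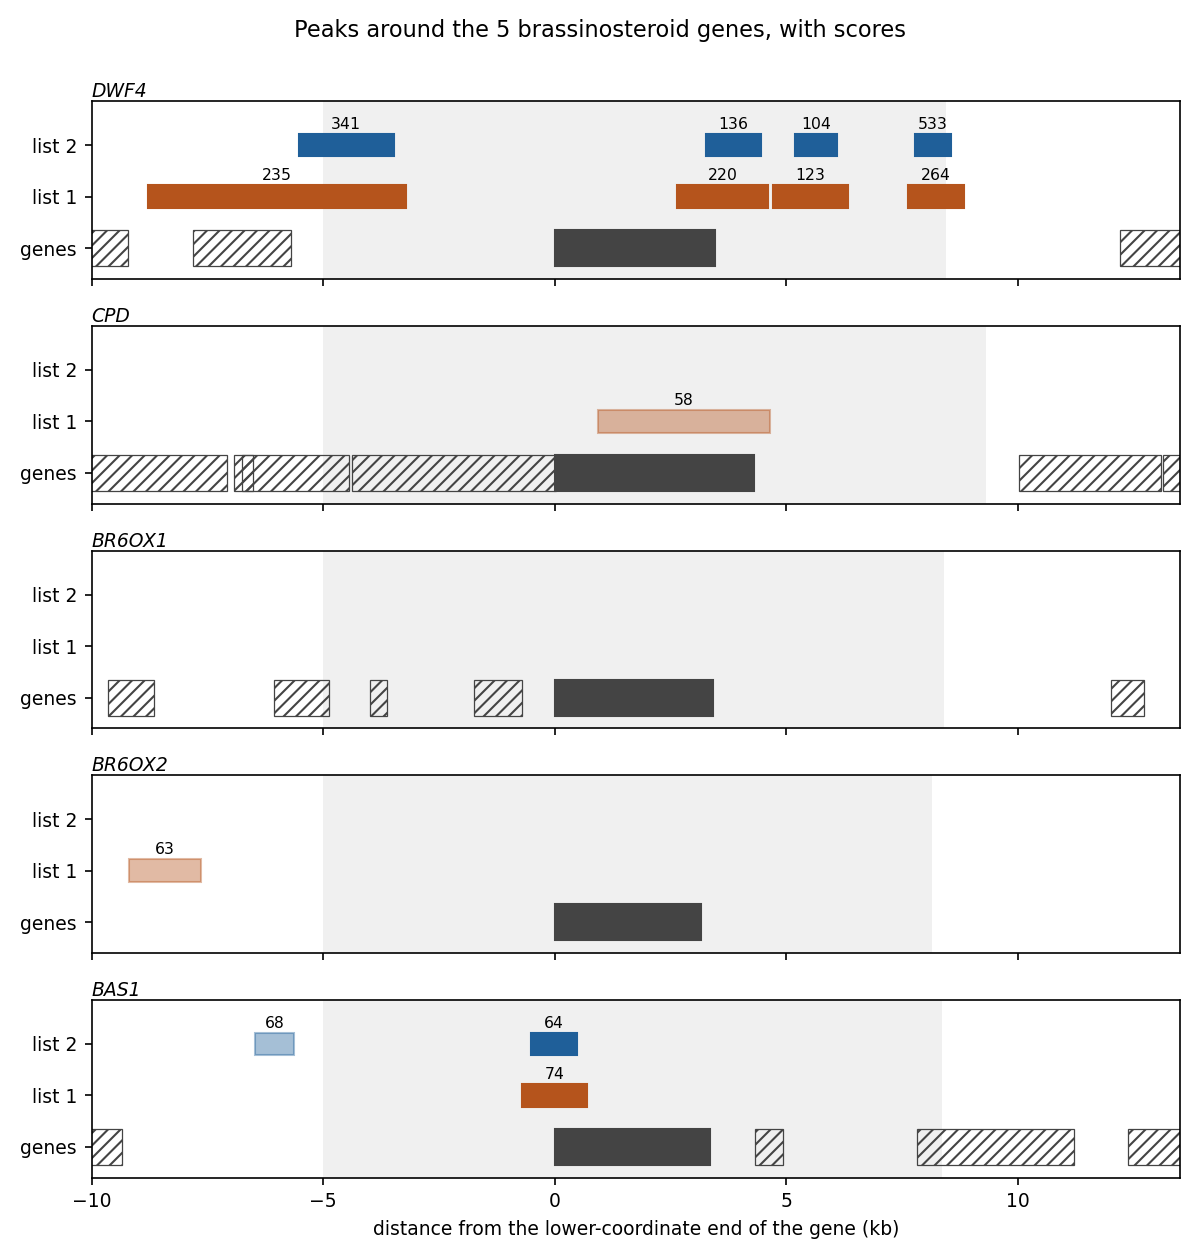
Peaks of list 1 (orange) and list 2 (blue) around each gene (dark box), plotted against the distance in kb from the lower-coordinate end of the gene, with the score of each peak printed over it. Pale bars are peaks without an overlapping peak in the other list, hatched boxes are other protein-coding genes, and the grey band reaches 5000 bp to each side. DWF4 has 4 pairs of peaks, BAS1 has 1 pair over its lower end, CPD has a single pale list 1 bar, and the grey bands of BR6OX1 and BR6OX2 hold no peak.

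At DWF4 both lists placed 4 peaks within 5000 bp, and each list 1 peak overlapped exactly 1 list 2 peak. The pair at the gene itself covered its upper end. It spanned chromosome 3, 18816588 to 18818564, in list 1, with a score of 219.97 and rank 248. In list 2 it spanned 18817226 to 18818402, with a score of 136.36 and rank 437. Most of both peaks lay outside the gene: the list 1 peak covered 818 bp of DWF4 and 1159 bp above it, and the list 2 peak 180 bp and 997 bp.

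A further pair lay higher up, with no annotated gene under it, and DWF4 had the gene end nearest to it. In list 1 this peak ran from 18818668 to 18820290, 1262 bp above DWF4, with a score of 123.04 and rank 596. In list 2 it ran from 18819149 to 18820036, 1743 bp above the gene, with a score of 103.79 and rank 612. It was the lowest-scoring of the 4 pairs in both lists, but its scores were still above both list medians.

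The highest-scoring pair near DWF4 was also the farthest above it. It spanned 18821570 to 18822781 in list 1, 4164 bp above the gene, with a score of 263.51 and rank 176. In list 2 it spanned 18821723 to 18822498, 4317 bp above the gene, with a score of 533.29 and rank 51, which placed it in the top 3.54% of that list. This peak overlapped no annotated gene. The protein-coding gene with the nearest end was U1-70K, which encodes a protein of the spliceosome, 3378 bp and 3661 bp beyond the edge of the peak. It was therefore not read as a peak of DWF4 alone.

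These 3 pairs all fell into the stretch of 8754 bp that separates DWF4 from U1-70K. Peaks covered 45.6% of that stretch in list 1 and 30.4% in list 2. The RefSeq table holds 1 other gene there, a transfer RNA gene beside U1-70K, and no peak overlapped it.

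Below DWF4 stood the remaining pair. The list 1 peak was broad, 5570 bp wide, from 18805170 to 18810739, with a score of 235.12 and rank 220. It ended 3209 bp below DWF4 and overlapped AT3G50650. The list 2 peak was 2054 bp wide, from 18808417 to 18810470, with a score of 341.19 and rank 119, and overlapped no annotated gene. Its edge was 3478 bp below DWF4, and in both lists the nearest gene end was that of AT3G50650. No peak of either list covered the lower end of DWF4.

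Peak pairs as numerous as those at DWF4 were rare among genes. These counts take every pair within 5000 bp, whichever gene end is nearest. Of the 4 pairs at DWF4, the highest-scoring was nearest to U1-70K and the pair below to AT3G50650. At least 2 replicated pairs within 5000 bp were found at 1.84% of all protein-coding genes, at least 3 at 0.226%, and at least 4 at 0.0292%, which is 8 genes. The others among the 8 were ARF2, IAA9, HAT3, HB-2, AOX1A, BRG3 and AT1G75580, named after their values were seen. ARF2 and IAA9 encode regulators of auxin-responsive transcription, and HAT3 and HB-2 encode homeodomain-leucine zipper factors. A broad list 1 peak over several list 2 peaks counts as several pairs. Counting peaks in place of pairs, DWF4 and ARF2 were the 2 genes (0.00729% of all) with at least 4 peaks within 5000 bp in each list.

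DWF4 stands apart from its protein-coding neighbours, with 5705 bp to AT3G50650 and 8754 bp to U1-70K. A long non-coding RNA gene, AT3G08135, lies just below DWF4 within the gap to AT3G50650, and no peak overlapped it. Of the 507 genes with no other protein-coding gene within 5000 bp, 6.51% had a replicated peak, less than the 11.5% of all genes. DWF4 was the 1 gene of these 507 with 4 replicated pairs, again counted whichever gene end was nearest. BR6OX2 belonged to the same 507 genes and had none.

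**Figure D2:**
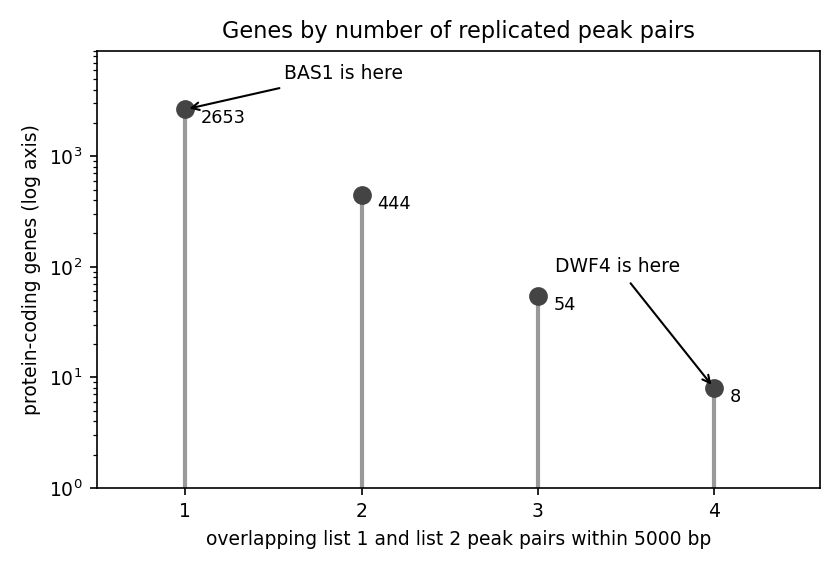
Number of protein-coding genes (vertical log axis) with 1, 2, 3 or 4 pairs of overlapping list 1 and list 2 peaks within 5000 bp (horizontal axis). The points fall from 2653 genes with 1 pair, where BAS1 is, to 8 genes with 4 pairs, where DWF4 is.

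The single replicated pair at BAS1 was low in both lists and lay over the lower end of the gene. In list 1 it spanned chromosome 2, 11379757 to 11381156, with a score of 74.32 and rank 1144. In list 2 it spanned 11379957 to 11380940, with a score of 64.28 and rank 1105. Both scores were below the median of their list, whereas all 8 DWF4 scores were above it.

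The BAS1 peaks lay close to each other. Their midpoints were 8 bp apart, against a median of 300 bp over all 892 one-to-one pairs, those with no further overlap on either side. The list 2 peak of 984 bp lay inside the list 1 peak of 1400 bp, which limits how far their midpoints can differ. List 1 peaks had a median width of 2824 bp, so the 300 bp is not a like-for-like measure. Both midpoints fell within 15 bp of the lower end of BAS1, at 6.5 bp and 14.5 bp from it. The peaks covered 694 bp and 478 bp of the gene and reached 706 bp and 506 bp below it. No gene end was nearer to these peaks than that of BAS1, and the next gene below it, PID2, was 9338 bp away. An unreplicated list 2 peak with a score of 68.1 lay 5635 bp below BAS1, just outside the 5000 bp limit, while the DWF4 peak 4317 bp from its gene was the farthest within it.

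In all 5 pairs at DWF4 and BAS1 the list 1 peak enclosed the list 2 peak completely, as in 95.1% of the 892 pairs. The list 1 peak was 1.56, 1.68, 1.83 and 2.71 times as wide at DWF4 and 1.42 times as wide at BAS1, against a median ratio of 1.88 over those pairs. Midpoints at DWF4 differed by 238 bp for the pair at the gene, 113.5 bp and 65 bp for the pairs above it, and 1489 bp for the pair below. The pair below DWF4 was thus the loosest match of the 5, and its overlap covered 36.9% of the list 1 peak. In the other pairs the overlap covered from 54.7% to 70.3% of it.

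**Figure D3:**
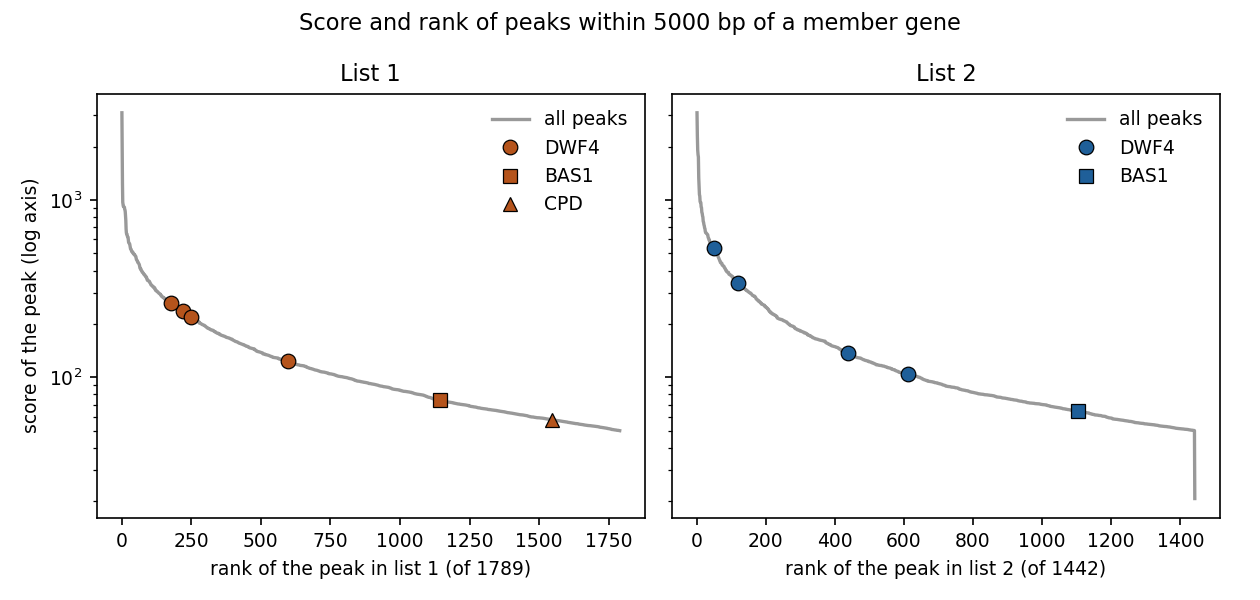
Score (vertical log axis) against rank (horizontal axis) for all peaks of list 1 (left) and list 2 (right), as grey lines, with the peaks within 5000 bp of a member gene as symbols. The DWF4 circles lie between ranks 176 and 596 in list 1 and between 51 and 612 in list 2, and the BAS1 squares and the CPD triangle lie lower, at scores under 75.

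CPD had a low peak in 1 list, and 9.91% of all genes likewise had a list 1 peak but no replicated one within 5000 bp. The CPD peak spanned chromosome 5, 1703574 to 1707284, in list 1, with a score of 57.56 and rank 1547. That is near the lowest score of the list, 50.01. The peak was broad, at 3711 bp, and covered 78.3% of the gene from its upper end. The nearest list 2 peak was 92371 bp away. Low list 1 peaks were often missing from list 2: of the 243 list 1 peaks that scored no higher than the one at CPD, 24.7% were replicated. Of the 646 that scored no higher than the BAS1 peak 30.5% were replicated, and of the 596 that scored at least as high as the lowest DWF4 peak 81.7%. The upper end of CPD faces a gene-free stretch of 5721 bp before ATE1, while its lower end overlaps MOS7 by 20 bp.

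The late oxidase genes BR6OX1 and BR6OX2 had none within 5000 bp, which was also true of 75.3% of all genes. For BR6OX2 the nearest list 1 peak (score 63.12, rank 1389) was found 7645 bp below and had no counterpart in list 2. The nearest list 2 peak was 11316 bp below BR6OX2, with a score of 69.8. For BR6OX1 the nearest peaks were 30638 bp and 42566 bp above the gene, with scores of 72.66 in list 1 and 73.34 in list 2. Over all genes the median distance to the nearest peak was 21198 bp for list 1 and 28960.5 bp for list 2. BR6OX1 was thus farther from a peak than the median gene, and 39.3% and 38.8% of genes were farther still.

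The 5 genes lie in chromosome surroundings that differ in how many peaks they hold. Within 500 kb to each side of DWF4 there were 30 list 1 peaks and 26 list 2 peaks, and 19.9% of the other 282 coding genes there had a replicated peak within 5000 bp. Around CPD there were 18 and 14 peaks, with 11.0% of 300 genes. Around BAS1 there were 10 and 7 peaks, with 6.12% of 245 genes.

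Surroundings of the oxidase genes were poorest in peaks. There were 6 and 5 peaks around BR6OX1, where 3.94% of 254 genes had a replicated peak, and 3 and 2 around BR6OX2, where 1 of 68 genes had one. The 2 genes without a peak within 5000 bp were thus those in the most sparsely bound surroundings of the 5, and the part of this in their lack of peaks was not tested. BAS1 had a replicated peak in surroundings where few other genes had one.

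The best pair of DWF4, by the mean of its ranks, placed it 312th among the 3159 genes with a replicated peak within 5000 bp, in the top 9.88%. BAS1 was 2762nd. The place of DWF4 rests on the pair nearest to U1-70K, with a mean rank of 113.5. The pair over the upper end of DWF4 had a mean rank of 342.5. Over these genes the median score of the best pair was 124 in list 1 and 117 in list 2. The genes whose best pair scored most like the 263.51 and 533.29 of DWF4 were NF-YB2 (264.74 and 554.75), CML37 (273.5 and 542.37) and SPL8 (256.97 and 556.28). Likeness was the absolute difference in log2 score summed over the 2 lists, which was 0.06, 0.08 and 0.10 among 866 candidates. Each candidate had the nearest gene end to the list 1 peak of its best pair, which DWF4 did not for its own. Likeness rests on 2 values per gene and on the DWF4 pair nearest to U1-70K.

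Other genes of the pathway were described from lists of 26 symbols, of which 24 matched 1 gene each. DRL1 and BAT1 were each the symbol of 2 genes in the table and were not looked up, and the BAT1 acyltransferase gene is counted under its other name, PIZ. A replicated peak within 5000 bp was found at 9 of the 24, namely 5 of 9 genes of the sterol stage, 1 of 3 of the brassinosteroid stage, 0 of 6 inactivation genes and 3 of 6 transcription factor genes. Under the same rule 11.5% of all genes had one. The rule takes a peak whichever gene end is nearest to it. Among the 9, only SMT2, PIF4 and PIF5 had the nearest gene end to both peaks of a pair. The replicated list 1 peaks at BES1, HYD1 and SMT2 share a stretch of chromosome 1, from 6682620 to 7044521. Peaks in the surroundings of pathway genes were not counted. At 10 of the 24 there was no peak in either list, against 75.3% of all genes.

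In the sterol stage, which supplies the precursors, SMT2 had the pair that covered the gene most fully. This sterol methyltransferase gene lay wholly under both peaks, with scores of 145.42 in list 1 and 129.21 in list 2. At STE1, a sterol desaturase gene, peaks with scores of 73.86 and 110.22 covered the lower end, although MEE31 had the nearer gene end. DWF5, a sterol reductase gene, had peaks 233 bp and 345 bp below it, with scores of 66.73 and 57.76, nearest to the end of SCL3. A second pair above DWF5 scored 324.09 and 165.81, 2016 bp and 4152 bp away and nearest to AT1G50450.

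HYD1 and SMT1 had replicated peaks farther off. At HYD1, a sterol isomerase gene, they lay 929 bp and 1928 bp below, with scores of 131.06 and 58.1, nearest to AT1G20030. At SMT1, another methyltransferase gene, the replicated peaks were 2869 bp or more above the gene, where a list 1 peak with a score of 146.33 overlapped list 2 peaks with scores of 95.47 and 52.85. Peaks over SMT1 itself were in list 1 only. CAS1, FK and DWF1 had none within 5000 bp, and CYP51G1 had one in list 1 only.

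In the brassinosteroid stage, ROT3, a P450 related to CPD, had a replicated pair inside the gene, with scores of 100.76 and 127.7, although AT4G36370 had the nearer gene end. A further pair lay 4618 bp and 4775 bp below ROT3, with scores of 266.32 and 87.27, nearest to BGAL3. CYP90D1, which acts beside ROT3, had a peak in each list, 2587 bp away in list 1 and 1167 bp away in list 2. These did not overlap each other. The list 1 peak, with a score of 262.58 and nearest to AT3G13740, overlapped a list 2 peak beyond the 5000 bp limit. DET2, a steroid reductase gene, had none within 5000 bp.

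None of the 6 other inactivation genes that matched had a replicated peak. With 11.5% of all genes having one, a count of 0 among 6 is not read as a difference. The P450 gene CYP72C1, a relative of BAS1, had its nearest peaks at 53937 bp and 15783 bp, and BEN1 at 34497 bp and 18787 bp. The glucosyltransferase genes UGT73C5 and UGT73C6 are near neighbours and had the same list 1 peak within 5000 bp, 3363 bp and 364 bp away, and no list 2 peak. BIA1 and PIZ, which encode acyltransferases, had none in either list.

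Among factors reported to act on promoters of these enzymes, BES1, PIF4 and PIF5 had replicated peaks. BES1, a main transcription factor of brassinosteroid signalling, had a list 1 peak over its lower end with a score of 180.42, which overlapped list 2 peaks with scores of 80.45 and 60.86. AT1G19340 had the nearer end to the first 2 of these, and BES1 to the last. A further pair lay below BES1, with scores of 319.28 and 209.97, nearest to AT1G19340. The light-signalling factor gene PIF4 had peaks over its lower end with scores of 120.05 and 119.33. PIF5 had peaks over its upper end. BZR1, the closest relative of BES1, had a peak in list 1 only, 868 bp away, with a score of 51.9 and rank 1735. TCP1 and CES, reported activators of DWF4 and CPD respectively, had none within 5000 bp.

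**Figure D4:**
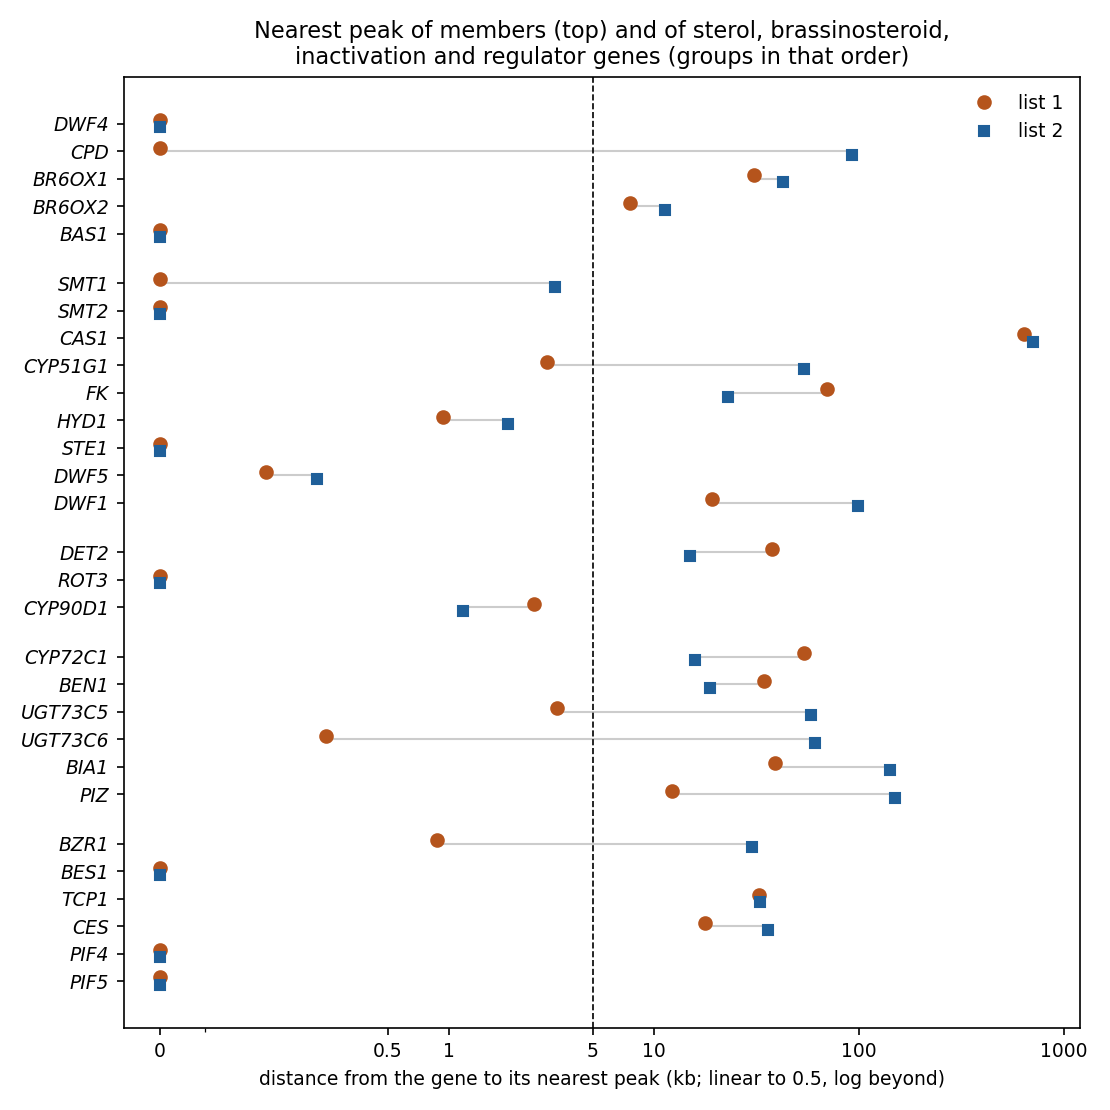
Distance in kb from each gene to its nearest peak in list 1 (circles) and list 2 (squares), on an axis that is linear to 0.5 kb and logarithmic beyond, for the 5 members (top) and then sterol, brassinosteroid, inactivation and transcription factor genes. The dashed line marks 5 kb. DWF4 and BAS1 have peaks of both lists at distance 0, CPD of list 1 only, and BR6OX1 and BR6OX2 lie right of the line in both lists.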

How the data were processed

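The submitters' processing notes name MACS 1.4.2, BWA 0.7.10-r789 and SAMtools, and TAIR10 as the build. Not given in the sources used here are their settings and any handling of duplicate reads. The authors deposited 1 score per peak, in 2 lists made per replicate against its control, and no counts. Genes came from the RefSeq table of TAIR10.1, which gives no strand, so sides are by coordinate. The highest peak of each list covered 100% and 96.2% of SMXL6, whose sequence the transgene carries, which was taken as a check that peak and gene positions match.

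Distances are the bases between peak and gene, peak starts were converted to count from 1, and a pair counted when both peaks lay within 5000 bp. The nearest gene end was sought among protein-coding genes only, from the midpoint of the peak. The search was tested on simulated data. Python 3.11.15, pandas 2.3.3 and numpy 2.4.6 were used. The rule for named genes took the 5 members, genes with the nearest end to their peaks, pathway genes with a replicated peak and the 3 most similar genes. Other pathway genes, further neighbours and the genes with 4 pairs were named after their values were seen. Members and lists were chosen with earlier results of these data known. Windows of 1000, 2000 and 10000 bp, scores of at least 100, overlap of 50%, trimmed peaks, nearest gene end and single lists were tried.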

Additional observations from a re-analysis of the deposited data

How the results depend on the processing

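DWF4 and BAS1 had a replicated peak with windows of 1000, 2000 and 10000 bp (5.03%, 6.74% and 19.2% of all genes), overlap of 50% of both peaks (5.8%), list 1 trimmed to the median width of list 2 (10.4%), and peaks given to the nearest gene end (3%). With scores of at least 100 in both lists 1 gene remained, DWF4, against 5.17% of all genes. Leaving out replicate 1 gave 2 genes, against 15.4% of all genes with a list 2 peak. Leaving out replicate 2 gave 3, with CPD added, against 21.4% of all genes with a list 1 peak. The highest member score fell from 263.51 to 219.97 in list 1 and from 533.29 to 136.36 in list 2 with windows of 1000 bp, and likewise with the nearest gene end, because the top pair then no longer belonged to DWF4. The number of pairs per gene was not recounted under these settings, so the count of 4 at DWF4 holds for the 5000 bp window and 1 bp of overlap. Its pair below overlapped by 36.9% of the list 1 peak, short of 50%. That pair and the top pair lay at least 3209 bp and 4164 bp away, outside windows of 1000 and 2000 bp. Pathway genes numbered 7 of 24 with windows of 1000 bp and 6 with scores of at least 100, against 9, beside 5.03%, 5.17% and 11.5% of all genes. They were not recounted by nearest gene end. No paired analysis was possible because the results come from no test. The planned restriction to the promoter side was not run, since strand was not used here. Read depth is unknown, so a missing peak, as at CPD in list 2, does not show absence of binding.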
